A study of Mus musculus with 12 samples.

Results

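The genotype by TGF-β2 interaction compares how much TGF-β2 changed each transcript in Nox4 KO fibroblasts with how much it changed it in WT fibroblasts, (KO TGF-β2 minus KO control) minus (WT TGF-β2 minus WT control) on the log2 scale. All 12 of the series' 12 RNA-seq libraries enter it, 3 in each of 4 groups. The cells were primary fibroblasts, digested from belly skin of WT mice (strain C57BL/6) and of mice labelled NOX4 KO (strain B6.129-Nox4tm1Kkr/J, a germline knockout), which the study bred as separate litters descending from littermates. Cells of all 4 groups were expanded in culture and starved of serum, and those of the 2 stimulated groups then received TGF-β2 at 10 ng/ml for 24 h. A positive interaction means that the KO response lay above the WT response, and a negative interaction that it lay below. The interaction is defined by the libraries, and counts, medians and lists cover all genes tested, while most genes named singly were taken for a small p or a large value.

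TGF-β ligands act through a pair of receptor kinases that phosphorylate SMAD transcription factors, and in skin fibroblasts they drive the change to myofibroblasts, which contract and lay down collagen. Nox4 is a membrane NADPH oxidase that makes hydrogen peroxide. It is itself induced by TGF-β, and an oxidase that passed part of the TGF-β signal on to genes would give those genes an interaction.

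Library totals lay between 35118344 and 43796260 counts, and 10890 of 21556 genes passed the filter of a mean RPKM (read counts scaled by exon length and by the library's total) of at least 1 in at least 1 group. All 14 fibroblast markers passed, with a summed RPKM of 5980 to 9950 over the libraries. Of the markers of other cell types, 3 of 10 for keratinocytes (Krt15, Krt1 and Dsg3), 4 of 10 for skeletal muscle (Myog, Mymk, Pax7 and Myod1), 3 of 9 for Schwann cells and melanocytes (Dct, Tyrp1 and Tyr), 2 of 10 for adipocytes (Cidec and Retn) and 1 of 8 for endothelium (Cldn5) had at most 3 counts in every library. All 12 macrophage markers had more in some library, with a summed RPKM of 14.5 to 129. The other lists also held expressed members. Skeletal muscle markers had a summed RPKM of 43.1 to 616, with Acta1 the highest member. Adipocyte markers had 4.23 to 33.1 (highest Lpl) and keratinocyte markers 2.16 to 16.2 (highest Sfn). Endothelial markers had 1.69 to 5.54 (highest Kdr), and Schwann cell and melanocyte markers 1.31 to 2.41 (highest Mitf). In bulk samples fewer cells of a type and less RNA per cell cannot be told apart. Nox4 itself lay at 1.48, 1.30 and 2.33 normalised RPKM in WT control and at 11.6, 8.49 and 16.9 after TGF-β2, and at 0.628, 0.616 and 1.31 in KO control and at 4.72, 4.60 and 7.09 after TGF-β2. It rose in both genotypes, by 2.85 in WT (adjusted p = 0.000374) and by 2.69 in KO (adjusted p = 0.000729), and the gene counts do not show which exons the KO reads come from. Its interaction was -0.17 ± 0.50 (standard error, SE), with an adjusted p of 0.949.

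The second WT library stimulated with TGF-β2 stood apart before any test. Each library's level of a gene was set relative to the gene's mean over the 12 libraries, and this relative level was ranked against the summed length of the gene's merged exons. Spearman's rho was -0.616 in WT TGF-β2 replicate 2, with short transcripts high and long ones low, and lay between -0.111 and 0.227 in the other 11 libraries. Against the GC content of the exons, rho was 0.274 in that library and between -0.219 and 0.188 in the others. Many of the results that rest on it are given below with and without it, and values given only once may also move without it. The plot of these relations by group shows it apart from the other 2 libraries of its group.

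**Figure D1:**
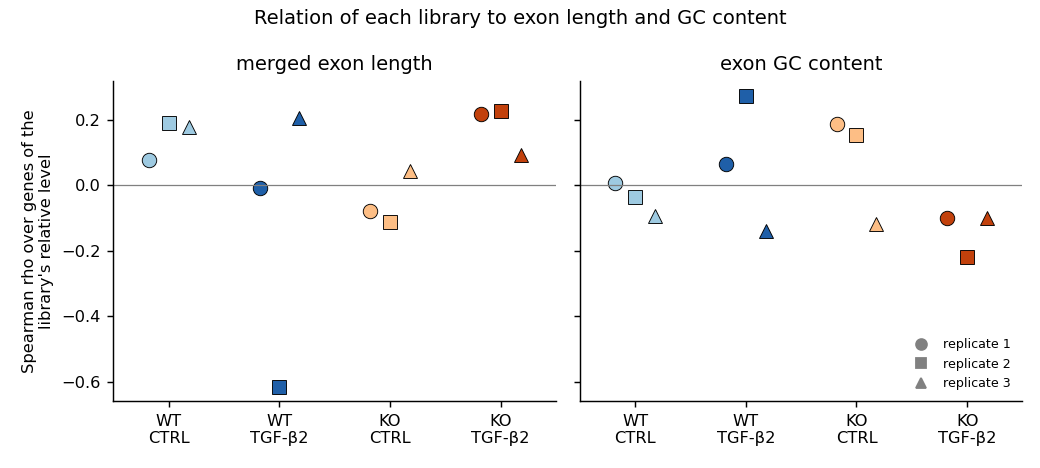
Spearman rho over 10890 genes between a library's relative level and merged exon length (left) or exon GC content (right), 1 point a library, by group and replicate. WT TGF-β2 replicate 2 lies at -0.616 for length, and the other 11 libraries lie between -0.111 and 0.227.

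No gene passed the test of the interaction. At a Benjamini-Hochberg adjusted p under 0.05, edgeR's quasi-likelihood test called 0 of 10890 genes (0%), and the smallest adjusted p was 0.85. At an unadjusted p under 0.05, 74 genes (0.68%) were positive and 216 (1.98%) were negative, together 2.66%, where such a limit gives 5% by itself. The share rested on the setting, with 14.9% by limma with voom, 12.5% without WT TGF-β2 replicate 3 and 7.65% with a nested replicate block. These 290 genes are described below as leaning to either side, which is not a call. The responses being compared were large: in WT 3564 genes (32.7%) had a TGF-β2 response with an adjusted p under 0.05, and in KO 3042 (27.9%). On the same counts DESeq2 called 6 genes, limma with voom and quality weights 5, edgeR's likelihood ratio test 2 and edgeR's legacy quasi-likelihood test 0. All calls of these tools were negative. They were Jund, Tpt1, Scand1, Dbp, Zfp503 and Crlf2 by DESeq2, Cox5b, Tpt1, Dbp, Zfp771 and Jund by voom, and Scand1 and Jund by the likelihood ratio test.

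The split between the sides moved with the setting. Negative genes made up 74.5% of the leaning genes after TMM scaling, 85.9% (292 of 340) after upper-quartile scaling and 91.0% (312 of 343) with library size alone, where the median interaction over all genes was -0.05 and -0.06 in place of 0.00. The share was 60.9% with a crossed and 54.5% with a nested replicate block, and negative genes were the smaller side with voom (46.6%) and without WT TGF-β2 replicate 3 (48.5%). The rank correlations with length and GC content given below were nearly the same under each of these 3 scalings, at 0.70 and -0.40.

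Which responses met on the negative side can be read from the fitted values. Of its 216 genes, 103 were higher after TGF-β2 in WT and less so in KO, 99 were higher in WT and lower in KO, and 14 were lower in both and more so in KO. On the positive side, 33 of 74 genes were lower in WT and less so in KO, 25 were lower in WT and higher in KO, and 16 were higher in both and more so in KO. The median WT response of the negative genes was 0.48 on the log2 scale and their median KO response -0.02. For the positive genes the medians were -0.36 and 0.05. Both sides were chosen by the difference of these responses, so the medians are descriptions.

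Jund, a subunit of the AP-1 transcription factor, had the smallest p. It lay at 23.3, 22.9 and 21.9 normalised RPKM in WT control and at 34.8, 36.6 and 31.9 in WT with TGF-β2. In KO it lay at 23.6, 29.6 and 27.0 in control and at 19.2, 23.0 and 25.5 with TGF-β2. The 3 stimulated WT libraries were above all others, while the KO groups overlapped. The WT response was 0.60 ± 0.11 by edgeR (adjusted p = 0.00284) and that of KO -0.24 (adjusted p = 0.138), an interaction of -0.84 ± 0.16 with an unadjusted p of 0.000304 and an adjusted p of 0.85. It stayed between -0.94 and -0.74 with each library left out in turn. With a correction that subtracts smooth trends of each library on GC content and length it was -0.37. Over all genes this correction turned the rho of the interaction with GC content from -0.40 to 0.25, so it reversed that relation.

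Tpt1, the growth-related tumor protein TCTP, lay at 6.26, 6.63 and 4.73 normalised RPKM in WT control, at 10.6, 13.7 and 10.3 in WT with TGF-β2, at 7.58, 7.61 and 8.65 in KO control and at 5.95, 6.07 and 7.94 in KO with TGF-β2. The stimulated WT libraries were above the other 9, and the KO groups overlapped. Tpt1 rose in WT by 0.97 (adjusted p = 0.0018), its KO response was -0.26 (adjusted p = 0.285) and the interaction was -1.23 ± 0.24. Tpt1 has near-identical processed copies in the genome, and reads that matched more than 1 location had been discarded, so its level is uncertain.

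Scand1, a small nuclear protein with a SCAN dimerization domain, had the most negative interaction of the genes that leaned with every library left out in turn, -2.10 ± 0.42. Its normalised RPKM was 3.28, 3.70 and 2.36 in WT control and 7.21, 12.5 and 6.95 in WT with TGF-β2, and 3.5, 6.55 and 6 in KO control and 3.16, 3.73 and 3.85 in KO with TGF-β2. The second stimulated WT library was by far the highest, the other 2 were still above the other 9 libraries, and without it the interaction was -1.77. Scand1 is short (759 bases of exon) and rich in GC (68.4%).

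Dbp, a clock-controlled transcription factor, differed from these in that its KO response carried the difference. It lay at 5.11, 5.41 and 5.53 in WT control, at 4.98, 4.60 and 4.83 in WT with TGF-β2, at 5.28, 4.98 and 6.5 in KO control and at 2.78, 2.61 and 3.12 in KO with TGF-β2. All 3 stimulated KO libraries were below the other 9, and the stimulated WT libraries were just below their controls. Dbp fell by 0.98 in KO (adjusted p = 0.000407), its WT response was -0.16 (adjusted p = 0.34) and the interaction was -0.82 ± 0.17. WT TGF-β2 replicate 2 lay close to the others of its group, and without it the value was -0.86. Among the other clock genes Cry1, a repressor of the clock, rose in both genotypes and had an interaction of 0.19 ± 0.14. The 16 clock genes tested had a median of 0.13, with 11 positive and 5 negative, which turned to -0.07 without WT TGF-β2 replicate 2 and to -0.01 with the correction.

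Cox5b, a subunit of cytochrome c oxidase, lay at 17.7, 17.8 and 15.3 normalised RPKM in WT control, at 25.5, 37.7 and 23.4 in WT with TGF-β2, at 22.6, 22.0 and 20.9 in KO control and at 18.9, 18 and 19.4 in KO with TGF-β2. The groups did not overlap in either genotype, with stimulated libraries above control in WT and below it in KO. Cox5b rose in WT by 0.77 (adjusted p = 0.00418) and its KO response was -0.22 (adjusted p = 0.329). The interaction of -0.99 ± 0.22 shrank to -0.75 without the second stimulated WT library. Opposite and complete separation of this kind was seen in 22 of 10890 genes (0.202%), 17 of them higher in WT and lower in KO, while 3344 genes separated completely in the same direction in both genotypes.

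Zfp503, a zinc-finger corepressor, was the other gene of this kind near the top. It lay at 21.3, 22.0 and 21.5 in WT control, at 25.4, 25.1 and 26.5 in WT with TGF-β2, at 21.8, 22.7 and 23.0 in KO control and at 18.5, 21.0 and 20.4 in KO with TGF-β2. The interaction of -0.42 ± 0.09 ran from -0.46 to -0.37 with each of the 12 libraries left out. It rose in WT by 0.25 (adjusted p = 0.0135), with a KO response of -0.17 (adjusted p = 0.0665). Its exons are 4216 bases long, longer than those of most negative genes.

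The other negative genes with the smallest p mostly rose in WT. Crlf2, a cytokine receptor chain, had an interaction of -0.84 ± 0.18, Zfp771 of -0.96 ± 0.22 and Nr2f6, an orphan nuclear receptor, of -0.81 ± 0.18. Ccdc85b, a small coiled-coil protein, had -1.01 ± 0.23. All 4 rose in WT, with adjusted p between 0.0002 and 0.00543, and none passed in KO, where adjusted p lay between 0.0626 and 0.503. Nr2f6 was at 13.4, 17.6 and 13.8 normalised RPKM in stimulated WT libraries against 9.66, 9.92 and 10.7 in stimulated KO libraries, with controls between 5.78 and 8.6. With the correction for GC content and length the interactions were -0.37 for Crlf2, -0.59 for Zfp771, -0.38 for Nr2f6 and -1.04 for Ccdc85b.

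Of the 290 leaning genes, 101 kept an unadjusted p under 0.05 with every one of the 12 libraries left out in turn, 87 negative and 14 positive. The largest interactions among them, beside those above, were Tmem238 at -1.24, the mitochondrial ribosomal protein Mrps34 at -1.17, the spliceosome protein Snrpf at -1.16, Prr7 at -1.15, Ier5l at -0.99 and, on the positive side, Adamtsl3 at 0.99. Ier5l, an immediate-early response gene, was at 10.8, 12.2 and 11.5 normalised RPKM in stimulated KO libraries and at 13.3 to 19.6 in the KO controls, and it fell by 0.52 in KO (adjusted p = 0.0419). For Tmem238, Mrps34, Snrpf and Prr7 all 3 stimulated WT libraries were above the other 9, for Adamtsl3 they were below them, and for Ier5l they overlapped the KO controls.

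**Figure D2:**
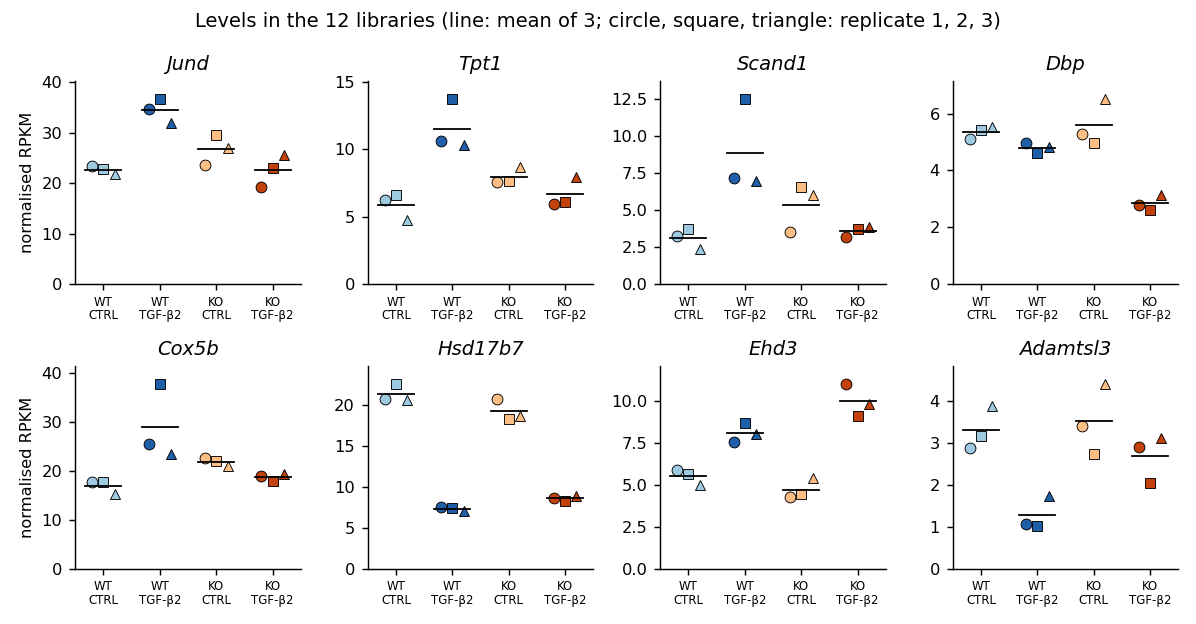
Normalised RPKM (counts scaled by exon length and TMM-scaled totals) of 8 genes in the 12 libraries by group, with the mean of 3 as a line and linear axes from 0. Jund, Tpt1, Scand1 and Cox5b are highest in WT with TGF-β2, Dbp is lowest in KO with TGF-β2, and Hsd17b7, Ehd3 and Adamtsl3 have a KO response above the WT response.

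On the positive side Hsd17b7, an enzyme of cholesterol synthesis, came first. It lay at 20.8, 22.6 and 20.7 normalised RPKM in WT control and at 7.55, 7.44 and 7.07 in WT with TGF-β2, and at 20.8, 18.3 and 18.7 in KO control and at 8.71, 8.33 and 8.87 in KO with TGF-β2. It fell in both genotypes, by 1.54 in WT (adjusted p = 5.13e-06) and by 1.16 in KO (adjusted p = 1.78e-05), and the stimulated groups did not overlap. The interaction was 0.38 ± 0.10 with an unadjusted p of 0.00322 and an adjusted p of 0.85. It lay between 0.34 and 0.44 with each library left out, and was 0.17 with the correction for GC content and length.

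Ehd3, a protein of endosome recycling, rose in both genotypes and more in KO. It lay at 5.91, 5.66 and 4.98 in WT control, at 7.55, 8.68 and 8.01 in WT with TGF-β2, at 4.28, 4.47 and 5.39 in KO control and at 11, 9.12 and 9.79 in KO with TGF-β2, where all 3 libraries were above the others. The WT rise was 0.55 (adjusted p = 0.00462), the KO rise 1.08 (adjusted p = 0.000188) and the interaction 0.53 ± 0.16, which remained 0.53 with the correction. Adamtsl3, a matrix protein related to the ADAMTS proteases, lay at 2.89, 3.16 and 3.88 in WT control and at 1.07, 1.03 and 1.73 in WT with TGF-β2, but at 3.41, 2.74 and 4.41 in KO control and at 2.91, 2.05 and 3.12 in KO with TGF-β2. It fell by 1.37 in WT (adjusted p = 0.00221), and its KO response was -0.38 (adjusted p = 0.264).

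Mospd2, Sipa1l1 and Rps6kb1 fell in WT, by 0.52, 0.95 and 0.34 with adjusted p of 0.00168, 9.41e-05 and 0.00819, and had interactions of 0.41, 0.38 and 0.34. Sipa1l1 also fell in KO, by 0.56 (adjusted p = 0.00161). Rps6kb1 encodes the S6 kinase downstream of mTOR. Its interaction turned to -0.10 with the correction for GC content and length. Itga9, an integrin chain, and Phtf2 rose in KO, by 0.42 (adjusted p = 0.0143) and 0.31 (adjusted p = 0.0479), with WT responses of -0.04 and -0.13 that did not pass. The interactions of Ttll7, a tubulin polyglutamylase, and the protocadherin Pcdh18 were 0.61 and 0.54, and neither response of either gene passed. These 10 genes with the smallest p on the positive side had exons of 3190 to 8520 bases, and the 10 on the negative side of 759 to 4715 bases.

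Of the 5 properties examined, exon length had the strongest relation with the interaction, ahead of gene span, number of exons, GC content and level. Over the 10890 genes the interaction and exon length had a Spearman rho of 0.70. This is a description across genes of the same 12 libraries, which are not independent. In the shortest quintile of genes (2178 genes, median 1414 bases) the median interaction was -0.22, and 133 genes leaned negative and 1 positive. In the next quintile the median was -0.10, in the middle quintile 0.01 and in the fourth 0.11. In the longest quintile (median 7264 bases) it was 0.25, with 4 genes leaning negative and 37 positive. The negative genes had a median exon length of 1672 bases and the positive genes of 5620, against 3396 over all genes tested. Gene span (rho 0.56) and the number of merged exons (rho 0.46) went the same way.

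Leaving out WT TGF-β2 replicate 2 lowered the length rho to 0.44, and the medians of the shortest and longest quintiles to -0.08 and 0.10. Leaving out any other single library left it between 0.64 and 0.71. The medians kept the same order over the 5 quintiles without it. In sets of 1 library per group sharing a replicate number, rho was 0.44 for number 1, 0.75 for number 2 and 0.03 for number 3. The correction that subtracts each library's own smooth trends on GC content and length brought the length rho to 0.02, as it is built to do. In single responses the relation had opposite signs, with rho of -0.24 for the WT response and 0.15 for the KO response.

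**Figure D3:**
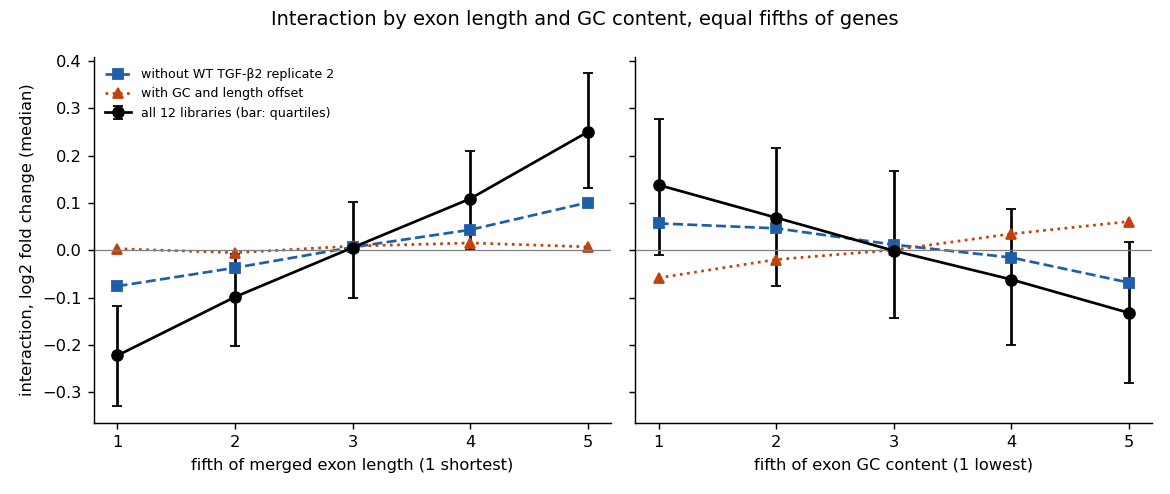
Median interaction (log2 fold change) in quintiles of merged exon length and of exon GC content, 2178 genes each, for all 12 libraries with quartile bars, without WT TGF-β2 replicate 2, and with the GC and length offset. The median rises from -0.22 to 0.25 over the length quintiles with all libraries, from -0.08 to 0.10 without that library, and stays near 0 with the offset, where the order over the GC quintiles turns round.

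A slope per library was also tested as a difference between libraries of the same number, although the numbers were not found to pair the WT samples. The slope of the relative level on log2 exon length, stimulated minus same-numbered control, was -0.03, -0.34 and -0.00 in WT and 0.09, 0.08 and 0.01 in KO. In this pairing the groups did not overlap, and the difference between the KO and WT means was 0.18 (exact two-sided permutation test, p = 0.1, the smallest p that 3 against 3 can give). The single slopes were 0.02, 0.04 and 0.06 in WT control, -0.01, -0.30 and 0.06 in WT with TGF-β2, -0.02, -0.02 and 0.02 in KO control and 0.06, 0.06 and 0.02 in KO with TGF-β2. Other pairings of them can make the differences overlap, since WT TGF-β2 replicate 3 lay above WT control replicate 1. For the slope on GC content per 10 percentage points the differences were 0.04, 0.24 and 0.03 in WT and -0.11, -0.12 and 0.03 in KO, which overlap (exact permutation p = 0.2). For the slope on mean level they were 0.05, 0.10 and 0.08 in WT and 0.05, 0.05 and 0.07 in KO (exact permutation p = 0.3).

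GC content followed, more weakly. Its rho with the interaction was -0.40, and it changed sign to 0.25 with the GC and length correction. The median interaction was 0.14 in the quintile of genes lowest in GC and -0.13 in the highest, where 119 genes leaned negative and 1 positive. The negative genes had a median exon GC content of 57.1% and the positive genes of 46.9%, against 50.4% over all genes tested. Short genes are also GC-rich (rho of length with GC -0.29), but each relation was seen within quintiles of the other. Within GC quintiles the length rho was between 0.56 and 0.70, and within length quintiles the GC rho was between -0.41 and -0.14. The 645 genes in the shortest and most GC-rich quintiles held 76 of the 216 negative genes and a median of -0.30, and the 684 longest and least GC-rich genes held 12 of the 74 positive genes and a median of 0.28.

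The sides differed little in expression level. The rho of the interaction with mean RPKM was -0.17, and within length quintiles it lay between -0.08 and 0.00. The median interaction ran from 0.06 in the lowest quintile to -0.08 in the highest, with 14 positive and 22 negative genes in the lowest and 12 and 51 in the highest.

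The promoters of the 2 sides did not repeat the difference in GC content of the exons. For 8664 of the 10890 genes RefSeq (GRCm38.p6) gives a window around a start of transcription, and the 250 bases before the start in the first window listed were searched. Its median GC content was 60.0% for 177 negative genes, 64.0% for 61 positive genes and 60.4% for all. The GC box GGGCGG, searched on both strands, was in 65.0% of the negative, 60.7% of the positive and 62.5% of all windows. The SMAD box CAGAC was in 40.1%, 39.3% and 40.5%, and the E-box CACGTG in 8.47%, 3.28% and 8.84%. The cyclic AMP response element TGACGTCA was in 3.39%, 1.64% and 2.86%, the AP-1 site TGANTCA in 2.26%, 0% (0 of 61) and 3.99%, and the TATA box TATAAA in 5.65%, 1.64% and 6.00%. None of these letter strings contains another, and a match describes letters, not a bound site. The windows of Scand1 (chr2:156312705-156312954, minus strand), on the negative side, and Hsd17b7 (chr1:169969242-169969455, minus strand), on the positive side, show this likeness: their GC contents are 61.6% and 65.4%, and both hold GC boxes, in capitals, 2 and 3. They are written 5′ to 3′ on the strand of the gene. Bases past the gene's first annotated start were left out of the printed windows, which leaves 250 bases for Scand1 and 214 for Hsd17b7.
Scand1: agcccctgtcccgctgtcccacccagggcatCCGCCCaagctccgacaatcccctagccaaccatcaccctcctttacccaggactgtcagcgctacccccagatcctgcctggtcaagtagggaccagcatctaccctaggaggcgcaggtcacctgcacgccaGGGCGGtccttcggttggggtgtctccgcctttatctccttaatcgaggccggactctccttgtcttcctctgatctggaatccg
Hsd17b7: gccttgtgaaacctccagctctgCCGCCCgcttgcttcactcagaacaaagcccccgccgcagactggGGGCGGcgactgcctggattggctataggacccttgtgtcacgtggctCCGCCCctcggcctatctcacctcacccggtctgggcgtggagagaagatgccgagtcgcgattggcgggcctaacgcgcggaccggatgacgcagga

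Leaning genes were also counted by their average response to TGF-β2. The average response over both genotypes does not enter the interaction in this balanced design. On average 281 genes rose by at least 1 on the log2 scale (adjusted p under 0.05). Of these, 3 leaned positive (1.07%) and 2 negative (0.712%), with a median interaction of -0.01. Of 562 that fell by as much, 4 leaned positive (0.712%) and 3 negative (0.534%), with a median of 0.11. The other 10047 of the 10890 genes held 67 of the 74 positive and 211 of the 216 negative genes. Their shares were 0.667% and 2.1%, against 0.68% and 1.98% of all genes tested. Of 166 genes within 20 Mb of Nox4 on chromosome 7, 1 leaned positive and 8 negative, against 73 and 208 of the 10724 elsewhere, and the median was 0.00. The whole of chromosome 7 (821 genes) held 2 positive and 38 negative genes with a median of -0.07, and chromosome X (341 genes) held 7 and 2 with a median of 0.06. Whether these counts differ beyond the length and GC content of the genes was not tested.

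By function, the negative side held genes of ribosomes, the respiratory chain and splicing. Of 84 cytosolic ribosomal protein genes tested, 79 had a negative interaction, 9 leaned negative (10.7%, against 1.98% of all genes) and none leaned positive, with a median of -0.31. Rpl27, at -0.68 ± 0.20, Rpl3, at -0.32 ± 0.10, and Rpl19, at -0.79 ± 0.28, had the smallest p. Rpl3 lay at 23.6, 25.4 and 26.9 normalised RPKM in WT control and at 31.0, 33.1 and 31.6 in WT with TGF-β2, and at 29.2, 28.6 and 28.1 in KO control and at 28.2, 28.2 and 30.3 in KO with TGF-β2. The stimulated WT libraries were above all others for Rpl3, and the 3 WT controls were the lowest. In WT 25 of the 84 genes rose (29.8%, against 18.6% of all genes tested) and none fell, and in KO 1 rose (1.19%, against 15.2%). Many ribosomal protein genes have near-identical processed copies whose shared reads had been discarded, so their levels are uncertain.

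Nuclear genes of the respiratory chain went the same way. Of 73 tested, 70 were negative and 8 leaned negative (11%), with a median of -0.31. In WT 16 rose (21.9%, near the 18.6% of all genes) and in KO 1 (1.37%, against 15.2%). Beside Cox5b, Cox8a of cytochrome c oxidase had an interaction of -0.83 ± 0.24 and Ndufb2 of complex I of -0.57 ± 0.18. Cox8a lay at 109, 113 and 88.3 in WT control, at 132, 204 and 121 in WT with TGF-β2, at 113, 123 and 119 in KO control and at 93.8, 95.6 and 105 in KO with TGF-β2, so that the groups separated in opposite directions. Of 77 mitochondrial ribosomal protein genes 75 were negative and 9 leaned negative (11.7%), with a median of -0.25, and 35 rose in WT (45.5%) and 8 in KO (10.4%). Mrps22 had an interaction of -0.41 ± 0.14 and Mrpl17 of -0.49 ± 0.19.

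The proteasome, whose subunits degrade tagged proteins, had 34 of 36 genes negative with a median of -0.16, and 1 leaned (Psmb4, -0.39 ± 0.16). Psmb4 was at -0.23 without WT TGF-β2 replicate 2. Splicing factors had 39 of 52 negative and 4 leaning negative (7.69%), with a median of -0.12. Snrpa1, a U2 snRNP protein, rose in both genotypes, by 0.86 in WT (adjusted p = 4.62e-05) and 0.43 in KO (adjusted p = 0.00176), with an interaction of -0.43 ± 0.10 that stayed between -0.48 and -0.38 with each library left out. Hnrnpa0 had -0.54 ± 0.14. Of 14 histone genes of the replication-dependent clusters 11 were negative, and Hist1h2bc, at -0.63 ± 0.25, leaned. Their median of -0.22 turned to 0.12 without KO control replicate 3.

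Apart from the splicing factors, these lists had short median lengths, and the medians of the ribosomal, respiratory and proteasome lists shrank without 1 library. Some members are long: Mrpl17 has 7605 bases of merged exon and Ndufb2 has 4375. Their interactions were -0.49 and -0.57, and -0.92 and -0.77 with the correction. Without WT TGF-β2 replicate 2, where both were highest, they were -0.29 and -0.37. The median exon length was 993 bases for the cytosolic ribosomal genes, 1046 for the respiratory chain, 1420 for the mitochondrial ribosome, 1586 for the proteasome and 1088 for the histones. The shortest quintile of all genes had a median of -0.22 by itself. In WT TGF-β2 replicate 2 the summed RPKM of the cytosolic ribosomal genes was 13200, against 7790 to 9410 in the other 11 libraries, and that of the respiratory chain 8320, against 5130 to 5850. The KO controls also lay above the WT controls. Their sums were 8640 to 9410 against 7790 to 8400 for the cytosolic ribosome, and 5690 to 5850 against 5250 to 5450 for the respiratory chain. Without WT TGF-β2 replicate 2 the medians were -0.12 for the cytosolic ribosome, -0.09 for the respiratory chain, -0.10 for the mitochondrial ribosome and -0.04 for the proteasome. In that setting 78 of 84, 62 of 73, 70 of 77 and 28 of 36 genes were negative. With the GC and length correction the medians were -0.07, -0.02, -0.10 and -0.01. Splicing factors differed, with a median exon length of 2648 bases and medians of -0.09 without the library and -0.14 with the correction.

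Collagen genes shared a positive sign without leaning. All 22 collagen genes tested had a positive interaction, none had an unadjusted p under 0.05, and the median was 0.30, with values from 0.02 to 0.65. Col11a1, a fibrillar collagen chain, rose by 1.27 in WT (adjusted p = 0.00452) and by 1.75 in KO (adjusted p = 0.00112), an interaction of 0.48 ± 0.37. Col5a2 lay at 1060, 976 and 899 normalised RPKM in WT control, at 1100, 765 and 1020 in WT with TGF-β2, at 885, 850 and 752 in KO control and at 960, 976 and 1010 in KO with TGF-β2. Its interaction was 0.27 ± 0.21, and that of Col12a1 0.55 ± 0.44. Without WT TGF-β2 replicate 2 the values were 0.33 for Col11a1, 0.13 for Col5a2 and 0.22 for Col12a1. WT TGF-β2 replicate 2 was the lowest stimulated library for all 3 genes, Col12a1 standing at 117 against 246 and 343 in its group. The summed RPKM of the collagens was 5740 in that library and 6820 to 9740 in the other 11. The collagens are long (median 6493 bases) and GC-rich (56.9%). Their median was 0.15 without that library, with 19 of 22 genes still positive, and 0.24 with the correction, with all 22 positive. It was as low, at 0.14, without KO TGF-β2 replicate 1, and rose to 0.48 without WT TGF-β2 replicate 1.

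Other matrix genes had smaller values. Of 42, 34 were positive, 1 leaned positive and 1 negative, with a median of 0.12 (0.11 without WT TGF-β2 replicate 2 and 0.14 with the correction). The median ran from 0.05 without KO control replicate 3 to 0.20 without WT control replicate 2. Ccn4, a matricellular protein, rose by 0.86 in WT (adjusted p = 0.000595) and by 1.28 in KO (adjusted p = 0.0001), and the collagen and elastin crosslinker Loxl1 by 0.79 (adjusted p = 0.000532) and 0.44 (adjusted p = 0.0134). Their interactions were 0.42 ± 0.17 and -0.35 ± 0.15. Ccn4 was at 209, 157 and 212 in stimulated WT libraries and at 227, 217 and 223 in stimulated KO libraries, and Loxl1 at 191, 190 and 172 and at 145, 143 and 155, so that neither overlapped. The basement membrane protein Nid1 fell in both, with an interaction of 0.40 ± 0.21. Of 25 matrix proteases and inhibitors 18 were positive, with a median of 0.13 (0.15 with the correction). The median was 0.04 without WT TGF-β2 replicate 2, when 10 genes were negative, and 0.04 without KO control replicate 3. Adamts12 leaned positive at 0.69 ± 0.27, rising in KO by 1.15 (adjusted p = 0.00179), and Adamts9 fell by 4.13 in WT and 3.48 in KO (adjusted p of 2.76e-05 and 6.11e-05) with an interaction of 0.66 ± 0.38.

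Of 27 genes of integrins and focal adhesions, 20 were positive and 2 leaned positive (7.41%, against 0.68% of all genes). Neither of the 2, Itga2 and Itgav, kept an unadjusted p under 0.05 with every library left out in turn. The list's median of 0.10 was 0.06 without WT TGF-β2 replicate 2 and 0.06 with the correction. Without KO control replicate 3 it was 0.01. The integrin gene Itga9, which also leaned positive, is not on this list. Itgav, the alpha-v chain that binds latent TGF-β, was at 55.8, 62.5 and 51.1 in WT control, at 92.0, 57.3 and 101 in WT with TGF-β2, at 42.4, 47.5 and 54.5 in KO control and at 105, 109 and 108 in KO with TGF-β2. It rose by 0.57 in WT (adjusted p = 0.0346) and by 1.15 in KO (adjusted p = 0.00139), an interaction of 0.59 ± 0.26. Without WT TGF-β2 replicate 2, where it was low, this was 0.38. Itga2, a collagen receptor chain, rose in KO by 2.05 (adjusted p = 0.00212) and had an interaction of 1.27 ± 0.49, at low levels of 0.341 to 2.32 normalised RPKM.

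For the pathway of TGF-β itself the median was near 0, with values from -0.67 to 0.49. Of 31 ligands, receptors, SMADs and inhibitors tested, 22 were positive and 9 negative, 1 leaned negative and none positive, and the median was 0.06. Of the 31, 16 had passed in the WT response (51.6%, against 32.7% of all genes) and 17 in the KO response (54.8%, against 27.9%). Id1, an inhibitor of DNA binding that SMADs induce downstream of BMP receptors, was the leaning gene. It lay at 55.1, 77.1 and 63.5 in WT control, at 44.5, 74.8 and 44.9 in WT with TGF-β2, at 70.7, 76.3 and 89.4 in KO control and at 37.5, 38.0 and 49.5 in KO with TGF-β2. It fell in KO by 0.92 (adjusted p = 0.00913), and the WT groups overlapped. Its interaction was -0.67 ± 0.30, and -0.38 without WT TGF-β2 replicate 2, which held its highest stimulated level. Smad3, the receptor-activated SMAD, fell by 1.05 in WT (adjusted p = 0.000186) and by 0.69 in KO (adjusted p = 0.00175), an interaction of 0.35 ± 0.16. Skil, the SnoN corepressor that restrains SMADs, rose by 0.77 in WT (adjusted p = 0.00915) and by 1.25 in KO (adjusted p = 0.000987), an interaction of 0.48 ± 0.26. Without WT TGF-β2 replicate 2 the interaction was 0.29 for Smad3 and 0.26 for Skil.

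The contractile genes of myofibroblasts had a median of -0.05 over 24 genes, 10 positive and 14 negative, with none leaning, and a median of 0.01 without WT TGF-β2 replicate 2 and 0.13 without WT control replicate 3. Acta2, the smooth muscle actin that marks myofibroblasts, lay at 6040, 5900 and 4870 in WT control, at 5410, 7790 and 5430 in WT with TGF-β2, at 5580, 5830 and 5430 in KO control and at 4540, 4990 and 7080 in KO with TGF-β2. All 4 groups overlapped, and the interaction was -0.17 ± 0.30 and turned to 0.03 without WT TGF-β2 replicate 2. The smooth muscle myosin Myh11 and the adhesion protein Vcl had interactions of 0.48 ± 0.34 and 0.48 ± 0.31. Without WT TGF-β2 replicate 2 these were 0.38 and 0.22, and without KO TGF-β2 replicate 3 that of Myh11 was 0.11.

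Of the genes taken from the study by name, Nox4, Acta2, Ucp2, Hddc3 and Islr, none leaned. Ucp2, a mitochondrial carrier, lay at 0.575, 0.354 and 1.18 in WT control and at 1.21, 1.24 and 1.94 in WT with TGF-β2, but at 1.14, 29.1 and 22.4 in KO control and at 2.22, 42.3 and 33.5 in KO with TGF-β2. KO replicate 1 was low in both conditions, and the interaction was -0.48 ± 1.52. Hddc3, a phosphohydrolase, lay at 0.935, 1.12 and 1.1 and at 0.962, 1.05 and 0.821 in WT without and with TGF-β2, and at 4.76, 4.21 and 2.98 and at 3.05, 2.59 and 2.68 in KO. It fell in KO by 0.53 (adjusted p = 0.0406), and the interaction was -0.37 ± 0.25. Islr, a secreted leucine-rich repeat protein, had an interaction of -0.26 ± 0.45.

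Of 15 NADPH oxidase genes and partners 4 were tested, and all 4 were negative without leaning, with a median of -0.19 and of -0.07 without WT TGF-β2 replicate 2. Nox3 and Noxa1 had no count in any library. Poldip2, a binding partner of Nox4, had an interaction of -0.21 ± 0.13. Cyba, the p22phox subunit that Nox4 needs, had -0.31 ± 0.22, which turned to 0.14 with the GC and length correction. Without WT TGF-β2 replicate 2 the interaction was -0.09 for Poldip2 and -0.06 for Cyba. Of 34 antioxidant and NRF2 target genes 23 were negative and none leaned, with a median of -0.10 that was 0.01 without WT TGF-β2 replicate 2 and 0.05 with the correction. Gpx1, glutathione peroxidase, lay at 196, 338 and 217 in stimulated WT libraries and at 186, 187 and 285 in stimulated KO libraries, with an interaction of -0.47 ± 0.30. This was -0.20 without WT TGF-β2 replicate 2 and -0.13 with the correction.

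Cholesterol synthesis fell in both genotypes, 19 of 23 genes in WT (82.6%, against 14.1% of all genes) and 19 in KO (82.6%, against 12.8%), with median responses of -1.07 and -0.98. The median interaction was 0.16, with 16 genes positive and 2 leaning positive (8.70%). It was larger without WT TGF-β2 replicate 2, at 0.31 with 2 genes negative, but turned to -0.04 without WT TGF-β2 replicate 3, and was 0.10 with the correction. In WT TGF-β2 replicate 2 the summed RPKM of the list was 467, against 370 and 300 in the others of its group and 388 to 490 in stimulated KO libraries. Ebp, the sterol isomerase, was the most negative member at -0.48 ± 0.26, and was at -0.24 without WT TGF-β2 replicate 2.

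Among the AP-1 and immediate-early genes, 20 of 30 were negative with a median of -0.13, and Jund alone leaned. Junb and Ier2 rose in WT by 1.18 (adjusted p = 0.000985) and 0.90 (adjusted p = 0.00318), and Junb also in KO by 0.68 (adjusted p = 0.0192), with interactions of -0.50 ± 0.26 and -0.48 ± 0.25. Both are short and rich in GC, and the list's median was -0.03 with the correction. Of 28 Hox genes 20 were negative with a median of -0.13, and Hoxb7 leaned at -0.37 ± 0.15. Their median was 0.01 with the correction, -0.02 without KO control replicate 3 and -0.35 without KO TGF-β2 replicate 3. Of 273 zinc-finger genes named Zfp, 197 were positive with a median of 0.14, which was 0.04 without WT TGF-β2 replicate 2 and 0.02 with the correction, and 3 leaned positive and 7 negative. The 7 included Zfp428, at -0.77 ± 0.23, which is short (1308 bases) with a GC content of 63.6%, beside Zfp503 and Zfp771.

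Of the smaller metabolic lists, glycolysis had a median of -0.04 over 19 genes (0.03 with the correction) and 1 leaning gene, Pgk1 at -0.47 ± 0.19. Pdk1, which restrains pyruvate dehydrogenase, had 0.41 ± 0.21. Without WT TGF-β2 replicate 2 Pgk1 was at -0.31 and Pdk1 at 0.31. Amino acid synthesis had -0.09 over 15 genes (0.00 without WT TGF-β2 replicate 2) with 1 leaning negative, and the unfolded protein response -0.07 over 25 with 1 leaning positive. Chemokines and cytokines had 0.04 over 19 (-0.03 without WT TGF-β2 replicate 2). That median ran from -0.22 without KO control replicate 3 to 0.23 without KO control replicate 2. On this list the hematopoietic cytokine Csf3 rose in both genotypes with an interaction of -1.22 ± 0.69, and Cxcl14 had -0.68 ± 0.39. Of 14 fibroblast markers 1 leaned, the transcription factor Twist2 at -0.52 ± 0.21, which fell in KO by 0.67 (adjusted p = 0.00709).

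**Figure D4:**
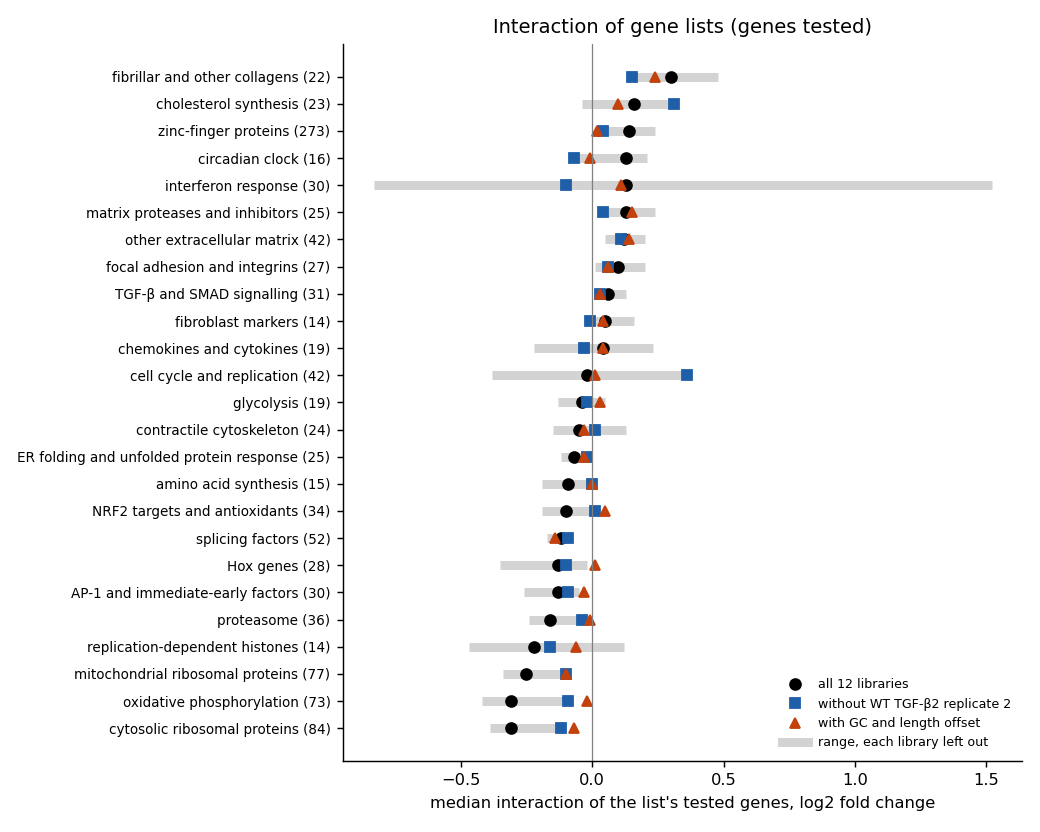
Median interaction (log2 fold change) of the gene lists with at least 10 genes tested, with all 12 libraries, without WT TGF-β2 replicate 2 and with the GC and length offset. Grey bars span the medians with each library left out in turn, from -0.83 to 1.52 for the interferon response and from 0.14 to 0.48 for the collagens.

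Lists whose genes vary between cultures rested on single libraries. The interferon response, 30 genes, had a median of 0.13 over all libraries, but -0.83 without WT control replicate 3 and 1.52 without WT TGF-β2 replicate 1. The summed RPKM of the list was 973 and 659 in these 2 libraries and 277 to 410 in the other 10. Macrophage markers, 9 genes tested, had a median of -0.04, which became -0.89 without KO TGF-β2 replicate 1 and 0.87 without KO control replicate 1. These libraries held 71.6 and 102 summed RPKM, and the highest value, 129, was in WT control replicate 3. Cell cycle and replication, 42 genes, had a median of -0.02 over all libraries of 0.36 without WT TGF-β2 replicate 2, when all 42 were positive, and of -0.38 without KO TGF-β2 replicate 1. None of the 42 passed in either response, and Cenpe, a mitotic motor, ranged from 0.296 to 4.39 normalised RPKM, with an interaction of 0.73 ± 0.90. Their part in the leaning genes of other lists was not tested.

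The leaning genes kept their sign without any 1 library, except 1 of 290 without KO control replicate 1. Having been chosen by a p under 0.05 over these same libraries, they were likely to do so from the start. Their interactions were larger in size with WT TGF-β2 replicate 2 than without it. WT TGF-β2 replicate 2 was the highest of the 12 libraries in 173 of the 216 negative genes (80.1%), against 25.1% of all genes tested, and the lowest in 47 of the 74 positive genes, against 24.0% of all. Its values also entered the choice of these genes. Without it 76 genes leaned positive and 174 negative, 159 of the 216 negative and 43 of the 74 positive genes kept their lean, all 290 kept their sign, and the median of the negative genes went from -0.47 to -0.33 and that of the positive genes from 0.41 to 0.33. The smallest adjusted p without it was 1. Fewer of the leaning genes kept their lean without KO control replicate 2 (145 of 290) than without any other library. Leaving out WT TGF-β2 replicate 3 had the opposite effect: 700 genes then leaned positive and 660 negative, 12.5% of those tested, with still 0 called and a smallest adjusted p of 0.392. The deviations of the 3 stimulated WT libraries from their group's mean had a rho with exon length of 0.531, -0.683 and 0.574.

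With the GC and length correction 57 genes leaned positive and 145 negative (1.85% together), of which 24 and 80 were among the genes leaning without it, and 20 and 66 of these also kept their lean without WT TGF-β2 replicate 2. Among genes leaning after the correction, the negative genes had a median exon length of 3346 bases and the positive genes of 3659, against 3396 over all genes. Their median GC contents were 48.8% and 54.5%, the reverse of the order before the correction. In 136 of the 216 negative genes all stimulated WT libraries were above all stimulated KO libraries, against 5.99% of all genes tested. In 40 of the 74 positive genes the stimulated KO libraries were all above, against 4.31%. Both sides were chosen by these same values, so that these shares are descriptions.

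**Figure D5:**
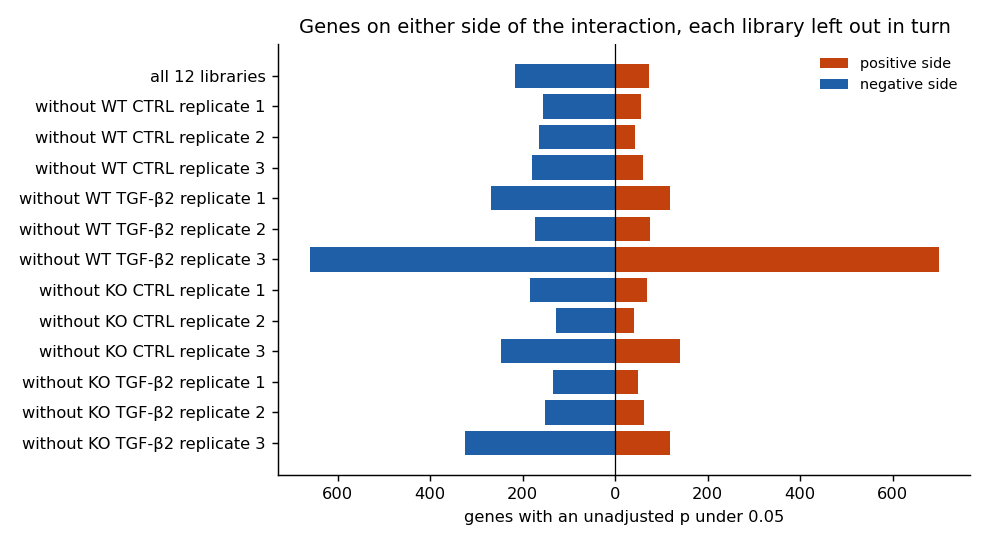
Number of genes with an unadjusted p under 0.05 in the interaction, positive side to the right and negative side to the left, with all 12 libraries and with each left out in turn. The bars are 74 and 216 with all libraries, 76 and 174 without WT TGF-β2 replicate 2, and 700 and 660 without WT TGF-β2 replicate 3.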

How the data were processed

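RNA-seq counts of 12 libraries of mouse skin fibroblasts, 3 in each of 4 groups, were analysed. The authors aligned single-end reads to GRCm38, dropped those with more than 1 location, and deposited raw counts per gene over the merged exons of its protein-coding isoforms, without normalization. The submitters' processing notes name CASAVA 1.8.2, STAR 2.4 and featureCounts 1.4.6. Whether counting used the strand is not given in the sources used here. Every value column was assigned to a sample by its title.

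Gene lengths, GC content and positions were taken from the GENCODE annotation of GRCm38 matching the authors' Ensembl release, by Ensembl identifier, for all 21556 genes (protein-coding transcripts for 21099, all transcripts for 457). A gene was tested where any group's mean RPKM reached 1. The interaction was fitted over 12 libraries with edgeR 4.0.16 (R 4.3.3), TMM normalization and the quasi-likelihood test, with Benjamini-Hochberg adjustment over the 10890 genes tested. Both single responses are contrasts of that fit, and standard errors come from the F statistic. Normalised RPKM are the RPKM computed with TMM-scaled totals. Relative levels are log2 CPM with a prior count of 2. The counting floor of 3 counts is 0.0427 RPKM for 2 kb of exon in the shallowest library. The GC and length offset subtracts each library's loess trend on both.

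Genes were named by rule: the 10 smallest p on each side, the 10 largest interactions among genes leaning with every library left out, 5 genes of the study, and up to 3 genes of each of 32 lists with the smallest p. The members, lists and this rule were chosen with earlier results of these data known, so that no pattern is independent support. Alternatives were DESeq2 1.42.0, limma 3.58.1 with voom and quality weights, edgeR's likelihood ratio and legacy tests, 3 other scalings, 3 other filters, replicate blocks, the offset, and each library left out. Replicates of a group differed by more than counting noise, with a chi-square per gene of 17.3 to 178. Nothing states whether they are separate animals, so p-values cover the spread between these samples, which may be technical. Labels give no batch or date. The fit was tested on simulated data.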

Additional observations from a re-analysis of the deposited data

Results flagged for a closer look

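In 5 of the genes named above every stimulated WT library lay on 1 side of its controls and every stimulated KO library on the other side, which 22 of 10890 genes (0.202%) did. The interaction was -0.42 for Zfp503, -0.99 for Cox5b, -0.99 for Ier5l and -0.83 for Cox8a, which were higher in WT and lower in KO with TGF-β2, and 0.61 for Ttll7, which was lower in WT and higher in KO. In edgeR's quasi-likelihood test of the difference itself each had an adjusted p of 0.85. DESeq2 called Zfp503 (adjusted p = 0.00154) and not Cox5b (adjusted p = 0.0762), Ier5l (adjusted p = 0.127), Cox8a (adjusted p = 0.711) or Ttll7 (adjusted p = 0.875). Without WT TGF-β2 replicate 2 the values were -0.44 for Zfp503, -0.75 for Cox5b, -0.87 for Ier5l, -0.57 for Cox8a and 0.55 for Ttll7.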

How the results depend on the processing

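The count of 0 calls held under every scaling, filter, block and library left out. DESeq2 called 6, voom with quality weights 5 and the likelihood ratio test 2. Genes leaning positive (74) and negative (216) numbered 864 and 755 with voom, 379 and 454 with a nested replicate block, 275 and 373 with that block and the GC and length offset, and 194 positive with a crossed replicate block. Positive genes numbered 48 with upper-quartile scaling, 31 with library size only and 119 with no filter. With a library left out the counts ran from 41 to 700 positive and from 127 to 660 negative, the lowest without KO control replicate 2 and the highest without WT TGF-β2 replicate 3. The rho with exon length became 0.0179 and that with GC content 0.25 with the offset, 0.0191 and 0.246 with the offset and nested replicate block, by construction of the offset for length. The cause of the other changes was not tested. Same-numbered libraries deviated together in KO (correlations of 0.771, 0.685 and 0.748) but not all in WT (0.0731, 0.437 and 0.532, where control 1 went best with stimulated 2, at 0.308), so the numbers were not taken to pair the samples.

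Of 110 genes taken by the naming rule, 60 of 2839 values under an alternative had the opposite sign, in 23 genes. Of those named in the text, with the offset the interaction log2 fold change of Rps6kb1 turned to -0.104 (-0.0794 with the nested replicate block added) and that of Cyba to 0.143 (0.143 with it). Leaving out 1 library turned Nox4 (between -0.48 and 0.27), Ucp2 (between -1.11 and 0.10) and Acta2 (between -0.38 and 0.0252). Of 728 list medians under an alternative, 55 moved by more than the spread over same-numbered sets. Depth limits genes near 1 RPKM most, and 3 libraries a group limit every test here.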
